A study of Mus musculus with 6 samples.

Results

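YTHDC1 binding in the 3′ untranslated regions (3′UTRs) of C2C12 mRNAs was described from 3754 LACE-seq peaks, which are 12.9% of the 29087 peaks that both C2C12 libraries shared (95% exact interval 12.5 to 13.3). A peak was counted when 1 nt or more of it lay under a same-strand peak of the other library, when its centre lay in the 3′UTR of a coding transcript of a protein-coding gene on the strand of the RNA, and when no coding sequence was annotated at the centre. The reads of these libraries lie on the strand opposite to the RNA. The same search on the other strand gave 83 shared peaks, so that 97.8% of all shared 3′UTR peaks lay on the strand of the RNA.

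C2C12 is a mouse myoblast line that proliferates in growth medium and fuses into myotubes when serum is withdrawn. The C2C12 cells were labelled WT and were kept in DMEM with serum. Cells were crosslinked with UV light, YTHDC1 was pulled down with an Abcam antibody, and reverse transcription of the bound RNA fragments stopped at the crosslinked nucleotide. The labels call the 2 C2C12 libraries bio1 and bio2, replicates 1 and 2 here, whereas the study speaks of technical replicates, so that the spread between them may be technical. The other cells of the series, ASC-48h, are WT satellite cells activated by 48 h of culture and given as 4 libraries (bio1 and bio2, each with 2 technical replicates) from fewer cells, and they enter only where stated. Neither an input library nor a control antibody library was analysed here, and peak numbers were not set against RNA abundance.

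YTHDC1 is the nuclear reader of N6-methyladenosine (m6A), the most common internal modification of mRNA. The methyl mark is placed by the METTL3 and METTL14 complex in the DRACH consensus, where D is A, G or U, R is A or G and H is A, C or U, and it is known to gather around stop codons and in the 3′UTR. The 3′UTR follows the stop codon, is usually contained in the last exon, and carries the sites through which microRNAs and proteins act on stability, localization and translation. YTHDC1 is known to take part in splicing, in the choice of the 3′ end and in the export of methylated mRNA.

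The sequences of the 10 highest peaks, by the mean of both libraries, show what the bound stretches looked like. Each is the 20-nt bin on the strand of the RNA, 5′ to 3′ in DNA letters of the mm9 genome, and capitals mark runs of at least 4 pyrimidines.
Fat1, chr8:46136841-46136860, 88 nt after the stop codon: TCTTTTgcagccgtctgggc
Scd2, chr19:44380301-44380320, 2621 nt after the stop codon: tctaaccagtgttgctcgtg
Scd2, chr19:44380241-44380260, 2561 nt after the stop codon: TTTCTaacagTCCTTgCCTC
Scd2, chr19:44380061-44380080, 2381 nt after the stop codon: aaaagcagCTCTCTTCTTag
Ppp1r9b, chr11:94866981-94867000, 319 nt after the stop codon: agaCTTTataaCCTCCagcc
Ptma, chr1:88426601-88426620, 24 nt after the stop codon: aaataaCCTTacgcaccgtg
Leng8, chr7:4099141-4099160, 446 nt after the stop codon: gaCTCTTgctgcccagccgt
Tpt1, chr14:76247921-76247940, 23 nt after the stop codon: atcacctgtcaccataattg
Ctsb, chr14:63761341-63761360, 185 nt after the stop codon: ccaaacactgTCCTTacctg
Slc44a2, chr9:21159261-21159280, 1039 nt after the stop codon: caCTTTacctaccgtatgct
Pyrimidines made up 50% to 75% of these 10 bins. The 20-nt sequence occurred once in the genome for 8 of them, whereas that of Ptma had 3 copies and that of Tpt1 had 4, so that reads of these 2 peaks may belong to another copy.

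Most shared 3′UTR peaks were low. The deposited height of a peak is a raw read number for each 20-nt bin, and no value under 6 was listed in either library. The median was 8 reads per bin in both libraries, with quartiles of 7 and 10 in each, and the highest values were 42 in replicate 1 and 39 in replicate 2. Coding exon peaks had the same medians and quartiles. Of the 3754 peaks, 2796 (74.5%) had a mean under 10 reads, 927 lay between 10 and 20, and 31 reached 20 or more. Single bins made up 89.8% of the peaks, and the widest spanned 120 nt.

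The highest member lay in the 3′UTR of Fat1, an atypical cadherin, with 42 reads per bin in replicate 1 and 39 in replicate 2 (mean 40.5 ± 2.12, SD, n = 2). Scd2, a stearoyl-CoA desaturase of fatty acid synthesis, held 3 of the 10 highest peaks, with 39, 32 and 30 reads in replicate 1 and 22, 22 and 21 in replicate 2. All 3 were lower in replicate 2. Ppp1r9b, an actin-binding scaffold of protein phosphatase 1, had 24 and 30 reads. Ptma, which codes for prothymosin alpha, and Leng8 both had 25 reads in replicate 1 and 26 in replicate 2. Tpt1, the translationally controlled tumour protein, had 29 and 21 reads, and the choline transporter gene Slc44a2 had 26 and 23. The peak of Ctsb, the lysosomal protease cathepsin B, differed most among the 10, with 35 reads in replicate 1 and 14.5 in replicate 2 (mean 24.8 ± 14.5, SD, n = 2).

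**Figure D1:**
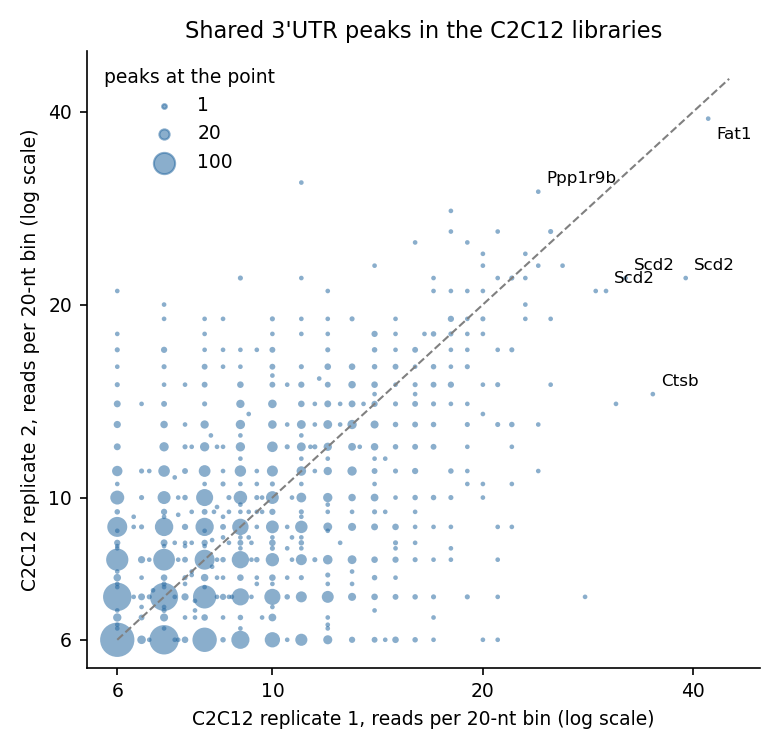
Reads per 20-nt bin of each shared 3′UTR peak in C2C12 replicate 1 (x axis) and replicate 2 (y axis), both on log scales. The area of a point grows with the number of peaks at that pair of values, and the dashed line marks equal values. Most peaks sit between 6 and 10 reads in both libraries, and Scd2 and Ctsb lie on the side of replicate 1.

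The libraries gave like values at most of these peaks. The value was higher in replicate 1 for 1554 peaks, higher in replicate 2 for 1510 and equal for 690, and the median ratio of the higher to the lower value was 1.17. A ratio over 2 was found for 87 peaks (2.32%). Across the shared peaks, Pearson's r of log2 reads was 0.487 and Spearman's rank correlation 0.401, a description over 3754 peaks that had to pass the listing minimum in both libraries. For 50 peaks the replicate 2 value came from a wide peak that also covered another member.

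Finding a peak again depended on its height. Replicate 1 listed 7859 peaks in 3′UTRs, and 47.8% of them were found in replicate 2 (interval 46.7 to 48.9). The share was 40.7% under 10 reads per bin, 78.1% at 10 to 19 reads, and 53 of 53 at 20 or more. Counted from replicate 2, 47.6% of 7889 were found in replicate 1. For replicate 1, the shares were 49.8% for coding exon peaks and 38.4% for intron peaks.

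The 3754 peaks lay in 1725 genes, which are 7.86% of the 21942 protein-coding genes with an annotated 3′UTR and 35.5% of the 4860 such genes with any shared peak on the strand of the RNA. A single peak was found in 1010 genes (58.6%), 2 to 4 in 552, 5 to 9 in 126 and 10 or more in 37. These 37 genes held 13.1% of all peaks. Coding exon peaks were also found in 953 of the 1725 genes (55.2%) and intron peaks in 615 (35.7%), and 594 genes (34.4%) had neither.

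The peaks were placed along the spliced 3′UTR of 1773 transcripts, in each gene the coding transcript at the peak with the longest coding sequence. They lay a median of 575 nt after the stop codon (quartiles 221 and 1256) and a median of 1034 nt before the end of the transcript (quartiles 475 and 2005). The 3′UTRs used had a median length of 1639 nt. Within the first 400 nt after the stop codon lay 1477 peaks, or 39.3% (interval 37.8 to 40.9), although these nucleotides made up 18.96% of the sequence of the same 3′UTRs. At the other side, the last 200 nt held 365 peaks, or 9.72% (interval 8.79 to 10.7), of 9.70% of the sequence.

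The density was lower in each window farther from the stop codon. It was 2.76 peaks per kb in the first 100 nt, 2.08 from 101 to 200 nt, 1.84 from 201 to 400 nt and 1.34 from 401 to 800 nt. It was 0.879 from 801 to 1600 nt, 0.559 from 1601 to 3200 nt and 0.326 beyond. From the other end the order was different. The last 100 nt had 0.819 peaks per kb, and the windows from 101 to 800 nt before the end had between 1.23 and 1.27. Farther from the end the density was 1.06 from 801 to 1600 nt, 0.930 from 1601 to 3200 nt and 0.819 beyond. Since only 3′UTRs with a peak enter these densities, the values near the stop codon are also the ones to which short 3′UTRs contribute.

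Place as a share of length depends less on the mix of lengths. When each 3′UTR was cut into 10 equal parts, the part next to the stop codon held 645 peaks (17.2%), the next 485 (13.0%) and the part at the end 141 (3.77%), and each part held fewer than the one before it. In 3′UTRs of up to 500 nt the peaks lay a median of 101 nt after the stop codon, at 38.7% of the length. In those over 4000 nt the median was 1715 nt, at 31.8% of the length. Density was 4.45 peaks per kb in the short class and 0.524 in the long one, while the number per transcript was 1.33 and 2.92. Only 3′UTRs with a peak enter these classes, and a single peak already gives a short 3′UTR a high density. No preference for short 3′UTRs can therefore be read from these densities.

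Both sides of the stop codon were set side by side in 3385 transcripts, 1 for each gene with a shared peak in a coding exon or a 3′UTR. The 400 nt after the stop codon had 1.204 peaks per kb (interval 1.14 to 1.27), and the 400 nt before it had 1.45 (1.38 to 1.51). From 401 to 2000 nt, the 3′UTR had 0.648 (0.618 to 0.680) and the coding sequence 1.03 (0.995 to 1.06). The whole 3′UTR had 0.688 peaks per kb (0.665 to 0.711), below the 1.06 of the coding sequence (1.03 to 1.08). These exact Poisson intervals cover counting error only. A gene entered by a peak in either part, and 2622 genes had a coding exon peak while 1725 had a 3′UTR peak. The choice of transcripts thus enters the difference between the 2 parts, and its share was not tested. The highest windows lay on either side of the stop codon, with 1.52 peaks per kb from 200 to 101 nt before it and 1.49 in the first 100 nt after it.

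**Figure D2:**
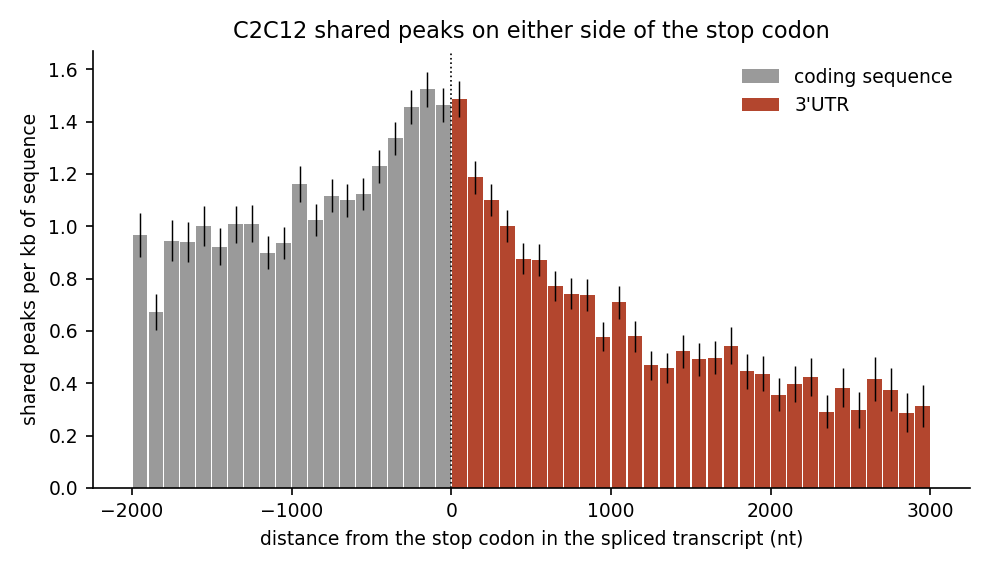
Shared peaks per kb of spliced sequence (y axis) in 100-nt windows by distance from the stop codon (x axis), over 3385 transcripts. Grey bars are coding sequence, red bars are 3′UTR, and error lines are the square root of the number of peaks in the window. The density falls from 1.49 peaks per kb in the first 100 nt of the 3′UTR to 0.311 from 2901 to 3000 nt.

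Few peaks lay outside the usual frame of a 3′UTR. The centre was in the stop codon itself for 10 peaks, and 2 lay on transcripts with no annotated stop codon, for which distance was counted from the last coding base. A 3′UTR with an intron held 200 of the peaks, of which 185 were in the last exon and 15 before it. Marveld1 held 5 of these 15, Phlda3 2 and Zfp41 2. In Phlda3, a p53 target whose product restrains Akt, 2 peaks had their centre before the 3′UTR intron. A bin of genome sequence may run past the end of the exon that holds its centre. Both bins are shown here with their pyrimidine runs in capitals, followed by the single-bin peaks after that intron.
Phlda3, chr1:137663421-137663440, 28 nt after the stop codon: tttatcgacatgCCCCCCCT
Phlda3, chr1:137663461-137663480, 68 nt after the stop codon: agacatgtcaggtgagTCCC
Phlda3, chr1:137665221-137665240, 245 nt after the stop codon: actgttgttatatccagctc
Phlda3, chr1:137665281-137665300, 305 nt after the stop codon: tgggCCTTacctggtccagc
The first of these had 22 reads in both libraries. The others had 9 and 8, 7 and 12, and 10 and 12 reads in replicates 1 and 2, and a further peak of 2 bins at 355 nt had 7.5 and 11.

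The gene with the most shared 3′UTR peaks was Igfbp5, a secreted binding protein of insulin-like growth factors that myoblasts make during differentiation. Its 35 peaks ran from 20 to 4120 nt after the stop codon in a 3′UTR of 4445 nt, with a median step of 85 nt from one peak to the next. They had 6 to 17 reads per bin in each library, with medians of 8.5 and 8.88. The largest step was 330 nt, and all 35 had sequences that occur once in the genome. The coding exons of Igfbp5 held 4 peaks and its introns 1.

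Nfix, a transcription factor of the fetal myogenic programme, held 24 peaks in 3951 nt, in 2 stretches with a gap of 1260 nt between them. Its values ran from 6 to 12 in replicate 1 and from 6 to 11 in replicate 2. Scd2 held 23 peaks with 6 to 39 reads in replicate 1 and 6 to 22 in replicate 2, and 14 of the 23 were higher in replicate 1. Summed over its peaks, the reads per bin were 317 in replicate 1 and 259 in replicate 2. Rbfox2, a splicing factor, held 22 peaks and no peak before 581 nt, with up to 14 reads in each library.

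Of the other genes among the first 10, Timp2, an inhibitor of metalloproteinases, held 19 peaks in 2630 nt, and its highest had 15 and 16 reads in replicates 1 and 2. Cxcl12, a chemokine, held 16, of which the highest lay farthest from the stop codon at 4074 nt with 21 and 13 reads. Notch2, a receptor that keeps satellite cells undifferentiated, held 15, and the highest had 20 and 21 reads at 1944 nt. Lrrc58 held 14, all from 1573 nt on, and 11 of these were higher in replicate 2. Tead1, the transcription factor through which YAP acts, held 13 spread over 8145 nt with a median step of 520 nt. Myh9, a non-muscle myosin heavy chain, held 13 in 1312 nt, with 6.5 to 14 reads in replicate 1 and 6 to 11 in replicate 2.

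**Figure D3:**
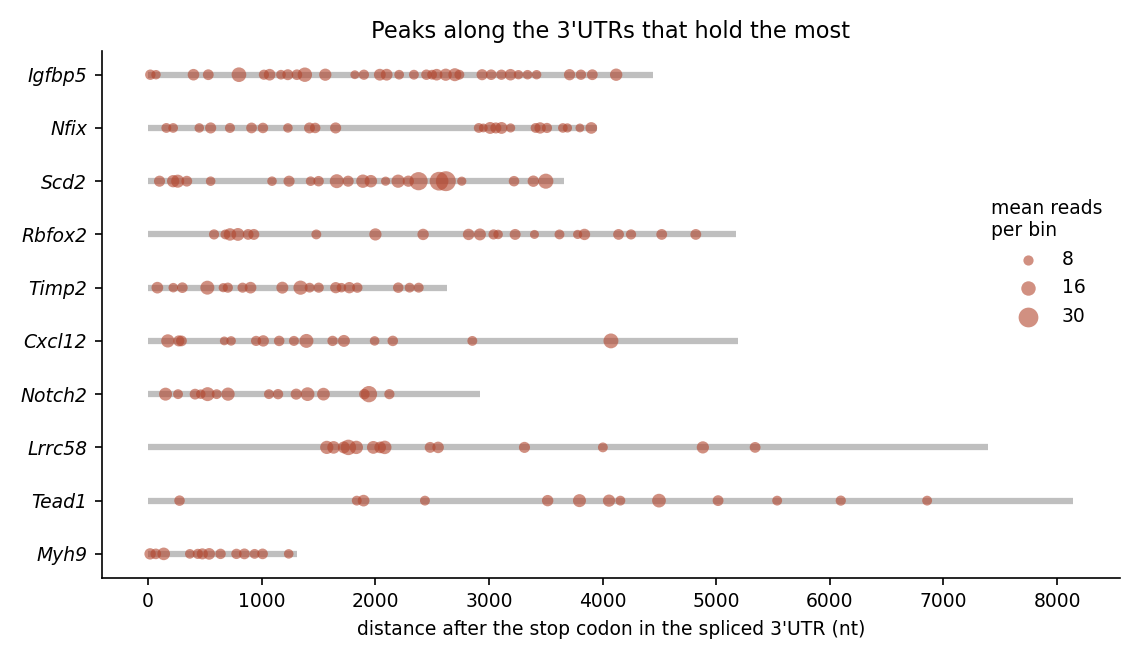
Shared peaks (points, area by mean reads per bin of the 2 libraries) along the spliced 3′UTR (grey line, drawn to scale) of the 10 genes with the most of them; the x axis gives the distance after the stop codon in nt. Igfbp5 has 35 peaks from 20 to 4120 nt, Nfix has a gap of 1260 nt, and Lrrc58 has no peak before 1573 nt.

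Measured per length, the densest 3′UTR of at least 500 nt was that of Fn1, the matrix protein fibronectin, with 10 peaks in 689 nt or 14.5 per kb. Its values ran from 6 to 13 reads in replicate 1 and from 6 to 14 in replicate 2, and the same gene had 77 coding exon peaks. 2010111I01Rik followed with 7 peaks in 510 nt, or 13.7 per kb, and 6 to 16 reads in each library. This gene also held 54 intron peaks and no coding exon peak. Its highest 3′UTR peak began at chr13:63403281, whereas the annotated gene ran on to 63427404. Gm10925 had 11.3 per kb, but every one of its 6 sequences occurred at a second place in the genome. Arhgdia had 12 peaks in 1127 nt (10.6 per kb) with none in its coding exons or introns. Bgn, the matrix proteoglycan biglycan, had 12 in 1137 nt (10.6 per kb), and its highest had 20 reads in replicate 1 and 13.5 in replicate 2.

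Of the 594 genes with no coding exon or intron peak, 12 held at least 5 peaks in the 3′UTR, and these 12 were singled out after their values were seen. Arhgdia led with 12, followed by the tumour necrosis factor receptor Tnfrsf1b with 9 and by Fam168a and the interleukin 1 receptor Il1r1 with 7 each. The highest peak of Il1r1 had 16 and 7 reads in replicates 1 and 2. Calu, which codes for the calcium-binding protein calumenin, held 6, with 18 and 10 reads at the highest, and 7 shared peaks lay in the gene in all.

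Near the stop codon, the 3 highest peaks within 100 nt were those of Fat1, Ptma and Tpt1, which are shown above. Near the transcript end, the highest within 100 nt was that of H13, a signal peptide peptidase, with 15 and 18 reads at 66 nt from the end. Mif, a cytokine with a 3′UTR of 124 nt, had 16 and 11 reads at 33 nt, and Serpinb6a had 13 and 13 reads at 75 nt. These 3 lay in 3′UTRs of 294 nt or less, and their distances after the stop codon were 228 nt for H13, 91 nt for Mif and 39 nt for Serpinb6a.

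Neighbouring peaks were often close. With peaks of a transcript joined when they lay at most 100 nt apart, 962 (25.6%) fell into groups of 2 or more, among them 310 pairs, 57 groups of 3 and 35 groups of 4 or more. The largest held 8 peaks of Plec, the cytoskeletal linker plectin, from 229 to 709 nt after the stop codon. Groups of 7 lay in Ctsb from 145 to 525 nt and in Igfbp5 from 2940 to 3420 nt.

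The base composition at the peak differed from that of the surrounding 3′UTR. Over the 3754 peaks, the bins held 31.1% cytosine and 19.6% adenine, against 22.5% cytosine and 25.4% adenine over the whole 3′UTRs of the same transcripts. Guanine was 21.4% against 22.8% and uracil 28.0% against 29.4%. The difference was local. In the 2809 peaks with at least 165 nt of 3′UTR on either side, cytosine was 30.9% at the centre, 24.6% at 100 nt upstream and 23.4% at 100 nt downstream, while adenine was 19.3%, 23.6% and 23.8%. Pyrimidines together were 59.4% at the centre and 52.6% and 52.3% on the 2 sides.

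Composition was also given by the height of the peak. Cytosine was 31.1% in peaks with a mean under 8 reads, 31.5% from 8 to 10, 30.6% from 10 to 15 and 29.0% in the 140 peaks with 15 or more. It was 30.1% in the 4105 3′UTR peaks of replicate 1 that replicate 2 did not list, and 30.5% in the 4136 of replicate 2 alone. Coding exon peaks had 32.2% cytosine at the centre, with 27.6% and 26.9% at 100 nt on either side, and intron peaks had 30.9%, with 23.1% and 23.8%. Unlike the 3′UTR peaks, these 2 classes were not limited to peaks with flanks of their own class. Their flanks can therefore lie in other kinds of sequence. Cytosine was thus higher at the centre in all 3 classes of peak, and the part that crosslinking, ligation or MNase may have in it was not tested.

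**Figure D4:**
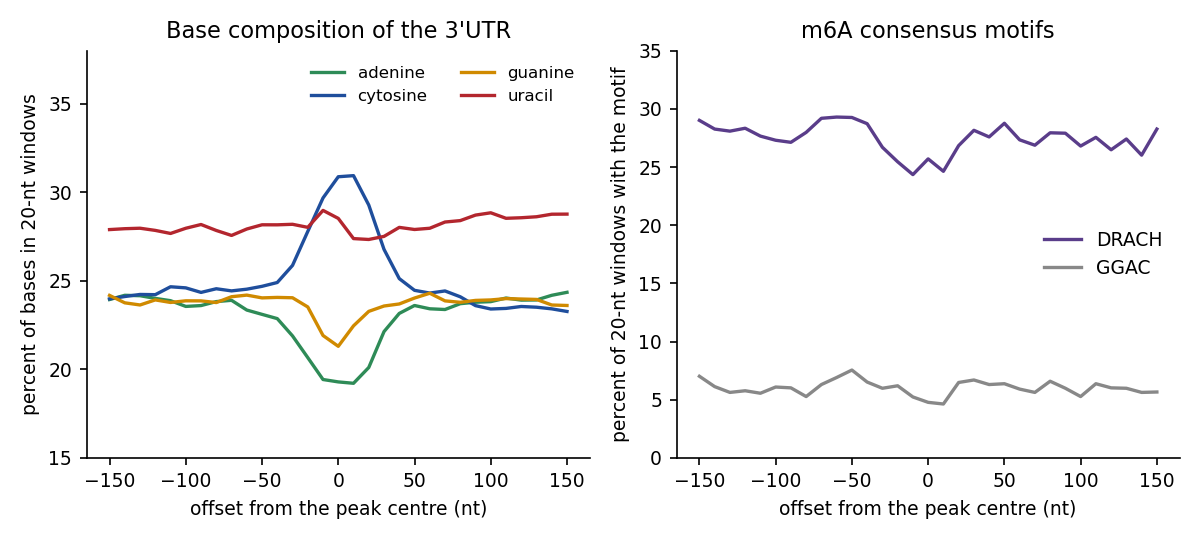
Left, percent of each base in 20-nt windows (y axis) by offset from the peak centre (x axis, nt) in 2809 shared 3′UTR peaks; right, percent of the same windows with a DRACH or a GGAC motif. Cytosine rises to 30.9% at the centre and adenine falls to 19.3%, while DRACH is at 25.7% at the centre and between 26.02% and 29.3% at 50 nt or more from it.

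Short motifs were counted in the 3574 peaks whose 60-nt window lay inside the 3′UTR and, as the background, in all windows of the same length in the same 3′UTRs. The 3 pyrimidine-rich motifs given first were chosen after the values were seen, and no test was made of them. TGCCT was present in 8.98% of the 20-nt bins against 3.20% of all windows, CTGCC in 8.31% against 3.21%, and CCTCT in 6.94% against 3.08%. The first of these motifs shares 4 letters with the second, so that their counts overlap. The 5 highest single-bin peaks with TGCCT, in capitals, show its place in the bin.
Scd2, chr19:44380241-44380260, 32 and 22 reads: tttctaacagtcctTGCCTc
2610203C20Rik, chr9:41399181-41399200, 20 and 23 reads: gatttTGCCTgacacttgga
Leng8, chr7:4099401-4099420, 22 and 17 reads: ttttctttccctccTGCCTc
Sept9, chr11:117222801-117222820, 21 and 15 reads: gctccgcTGCCTcaccctgt
Dlst, chr12:86474081-86474100, 21 and 13 reads: gttctccagagaTGCCTagg
Reads are those of replicates 1 and 2. The bin of Leng8 was 95% pyrimidine, whereas that of Dlst was 50%.

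Motifs rich in A or U went the other way. AAAAA was in 0.644% of the bins against 3.09% of all windows, and TTTTT in 2.46% against 5.19%. ATTTA, the core of the AU-rich element, was in 0.951% against 2.49%. The Pumilio motif TGTANATA, with N any base, was in 0.0560% against 0.304%, and the poly(A) signal AATAAA or ATTAAA in 0.308% against 1.98%. That signal was present in the last 50 nt of 78.7% of the transcripts used.

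The m6A consensus DRACH was found in 66.1% of the 3754 windows made of the peak and 20 nt on either side (interval 64.6 to 67.7), against 64.8% at coding exon peaks (63.7 to 65.8), a difference that did not pass Fisher's exact test (two-sided, adjusted p = 0.187 over a family of 11 tests). Against intron peaks, at 63.2%, Fisher's exact test passed (adjusted p = 0.00537), but not with 1 peak per gene (66.4% against 65.2%, adjusted p = 0.436). With 1 peak per gene, the comparison with coding exon peaks passed instead (66.4% against 63.0%, Fisher's exact test, adjusted p = 0.0312). These tests treat peaks as independent, although peaks of a gene share a transcript and its abundance.

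The same 3′UTR served as a closer comparison. In 3402 peaks that allowed it, DRACH was found in 64.5% of the windows at the peak and in 66.7% of those 100 nt downstream. The motif was at the peak alone in 719 and downstream alone in 795, and the difference of -2.23 percentage points did not pass an exact McNemar test (two-sided, p = 0.0539). Without replicate 2, over all peaks of replicate 1, it was -3.10 points with exact p = 9.16e-05, and without replicate 1 it was -2.87 with exact p = 0.000326. At peaks of at least 10 reads in both libraries it was 0.768 points with exact p = 0.834. With 1 peak per gene it was -3.11 points and did not pass (exact McNemar p = 0.0735). The tests over all peaks treat them as independent, although peaks of a gene share a transcript and their windows can overlap. Set against 100 nt upstream, the difference was -1.66 points (exact McNemar p = 0.165). In the 20-nt bins, DRACH was in 25.99% against 28.1% of all windows of these 3′UTRs. The windows compared were not matched in base composition. In the 2809 peaks described above, adenine was 19.3% at the centre and 23.8% at 100 nt downstream. The part of this in the DRACH differences was not tested.

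Peaks within 400 nt of the stop codon had DRACH in 67.2% and those farther away in 65.5% (Fisher's exact test, adjusted p = 0.319). With 1 peak per gene the shares were 68.9% and 64.1% (Fisher's exact test, adjusted p = 0.0447). By height, the share was 65.3% under 8 reads and 65.7% at 15 reads or more.

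GGAC, the core of the most common form of the consensus, was less frequent at 3′UTR peaks (19.6%) than at coding exon peaks (24.3%, Fisher's exact test, adjusted p = 1.92e-08) and more frequent than at intron peaks (13.8%, adjusted p = 2.50e-13). The order was the same with 1 peak per gene (19.4%, 23.8% and 11.1%). It was also the order of the sequence around the peaks. In 20-nt windows at 100 nt upstream, GGAC was in 6.09% for 3′UTR peaks, 7.59% for coding exon peaks and 5.70% for intron peaks, and at the centre in 4.77%, 6.65% and 3.69%. Only the 3′UTR peaks were limited here to those with flanks of their own class. In 3′UTR peaks the highest share by offset was 7.55% at 50 nt upstream of the centre. The 5 highest single-bin peaks with GGACT, in capitals, are given as examples.
Timp2, chr11:118164481-118164500, 14 and 16 reads: cctgcatctggtatGGACTt
Notch2, chr3:97952061-97952080, 11 and 16 reads: aaaatatttggGGACTagaa
Cirbp, chr10:79634141-79634160, 13 and 13 reads: tGGACTcgatttgagcaagc
Gadd45g, chr13:51943521-51943540, 7 and 19 reads: ttgttccgagcccaGGACTc
Nid1, chr13:13602781-13602800, 13 and 11 reads: tctagagccataGGACTtct
GGACT was in 67 of the 3754 bins, and in 1.62% of those used for the motif count against 1.61% of all windows.

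Most 3′UTR peaks began with a 20-nt sequence that had no exact copy elsewhere in the genome. Of their 20-nt sequences, 87.2% occurred once in the genome, against 81.6% at coding exon peaks (adjusted p = 1.84e-14) and 67.1% at intron peaks (adjusted p = 1.10e-115, both Fisher's exact test). The authors placed a read at up to 10 positions, so that a copied sequence can carry reads of another locus, and 69 of the 3754 had 10 copies or more. Copies were counted as exact matches, whereas the authors' alignment allowed mismatches. A sequence that occurs once here can therefore still carry reads of an inexact copy. A run of at least 10 G on the strand of the reads lay within 20 nt of 6 peaks (0.160%), against 1 of 8092 coding exon peaks (Fisher's exact test, adjusted p = 0.00708) and 218 of 5827 intron peaks (adjusted p = 7.97e-39). Restricted to single-copy sequences, 7.82% of the 3′UTR peaks lay within 200 nt of the transcript end in place of 9.72%.

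Gene groups differed widely in how many members had a shared 3′UTR peak. The lists were drawn up with earlier results of these data known, and a shared peak needs an RNA abundant enough to give it, so that the counts describe the lists and support no statement on YTHDC1 preference. In the actin cytoskeleton and adhesion list, 30 of 36 genes (83.3%) held 112 peaks, against 7.86% of all genes with a 3′UTR. Myh9 held 13, Plec 10, the giant scaffold Ahnak 9 and the tropomyosin gene Tpm3 6. The highest of Tpm3 had 15 and 19 reads. In Ahnak the 9 stood beside 151 coding exon peaks, and in Plec the 10 stood beside 91.

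Of 38 extracellular matrix genes, 23 (60.5%) held 126 peaks. Timp2 led with 19, followed by the follistatin-like glycoprotein gene Fstl1, by Thbs1, which codes for thrombospondin 1, and by Bgn, with 12 each. The highest of Fstl1 had 18 reads in both libraries, and that of Thbs1 had 17 and 18. Both lists had over 2 peaks per kb of annotated 3′UTR, at 2.34 for actin and adhesion genes and 2.23 for matrix genes, against 0.149 over all genes. Among genes with any shared peak on the strand of the RNA, 90.9% of the actin and adhesion genes and 71.9% of the matrix genes had one in the 3′UTR, against 35.5% overall.

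Immediate early genes and genes regulated through AU-rich elements had shared 3′UTR peaks in 21 of 33 (63.6%), with 57 peaks. Fosl2, a Fos family transcription factor, held 12, but its highest had 9 reads in replicate 1 and 22 in replicate 2. Egr1 held 7, with 19 and 16 reads at the highest, and the antiproliferative Btg2 and Btg1 held 6 and 4. Of 23 p53 targets 4 (17.4%) were bound in the 3′UTR, namely Btg2, Phlda3, Plk2 and Cdkn1a.

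Of 28 myogenic regulators and myoblast genes, 10 (35.7%) held 21 peaks. Des, the muscle intermediate filament desmin, held 4, and its highest had 17 and 12 reads. Id3, an inhibitor of MyoD activity, held 3 in 536 nt, and the highest had 20 and 19 reads. Six4 held 3. Cell cycle genes were bound in 9 of 30 by 10 peaks, among them Cdkn1a with 2 and Ccnb1, Cdk1 and Top2a with 1 each.

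In signalling, 7 of 31 Wnt genes (22.6%) held 20 peaks, of which Csnk1a1 and Csnk1e, kinases of the casein kinase 1 family, held 8 and 5. Ctnnb1, which codes for beta-catenin, and the receptor gene Fzd1 held 2 each. Of 31 TGF-beta, BMP and Notch genes 6 (19.4%) held 21 peaks, and Notch2 alone held 15 of these.

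Of 33 SR and hnRNP genes 12 (36.4%) held 17 peaks, with 3 each in Hnrnpa0 and Ptbp1. Of 23 m6A writers, erasers and readers 7 (30.4%) held 9. The demethylase gene Alkbh5 held 3, with 13 and 12 reads at the highest, and the demethylase gene Fto and the readers Fmr1 and Igf2bp2 held 1 each. Of 22 genes of 3′ end processing and poly(A) binding 4 (18.2%) held 5 peaks, and the single peak of Cpsf7, a subunit of cleavage factor I, was high, with 23 and 19 reads. Of 33 nuclear genes of chromatin and transcription 8 (24.2%) held 16. Mll1 held 4, and Chd4 and Tet3 held 2 each. Several of these lists were near the values of all genes. Among genes with any shared peak, a 3′UTR peak was found in 29.6% of the chromatin list, 33.3% of the TGF-beta, BMP and Notch list, 36.4% of the p53 and of the 3′ end processing list, 41.2% of the Wnt list and 46.7% of the m6A list, against 35.5% overall. Per kb of annotated 3′UTR, the m6A list had 0.168 peaks and the 3′ end processing list 0.160, against 0.149 over all genes.

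Cytosolic ribosomal protein genes stood at the other end. Only Rps29, Rps4x and Rpl19 of 75 had a shared 3′UTR peak, with 1 each, while 65 of the 75 had a shared peak somewhere on the strand of the RNA. Their longest annotated 3′UTR had a median of 81 nt, against 708 nt over all genes, which limits the places a peak can take. Per kb of annotated 3′UTR the list had 0.105 peaks, against 0.149 over all genes.

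**Figure D5:**
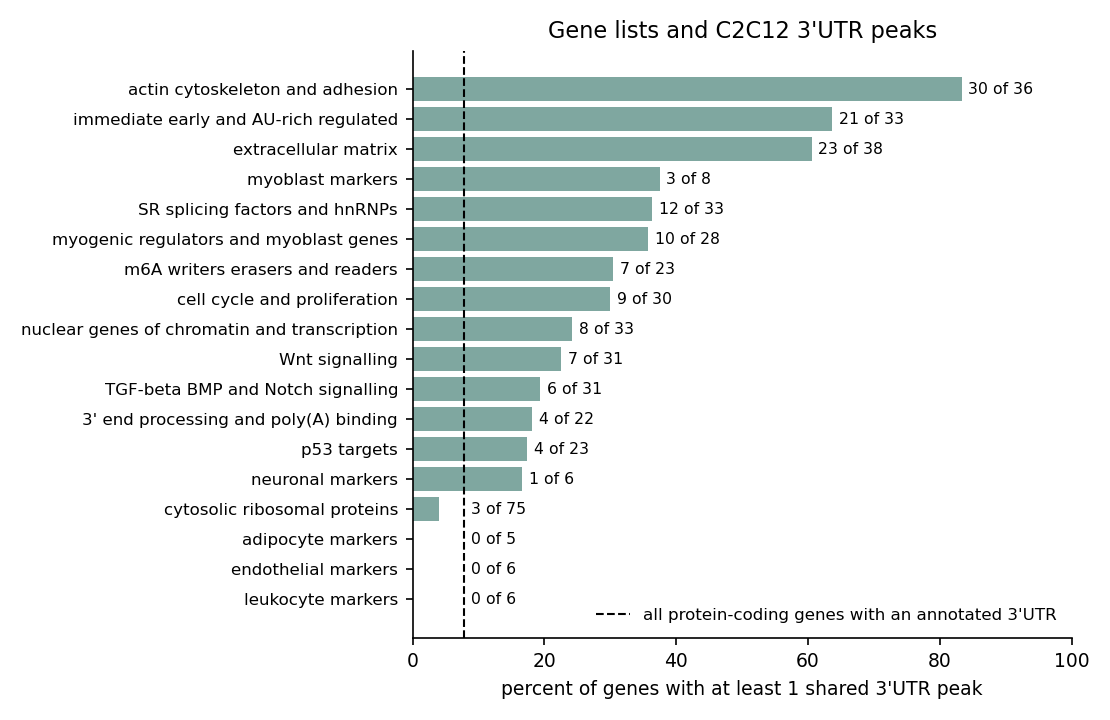
Percent of the genes of each list with at least 1 shared 3′UTR peak in C2C12 (x axis), with the number of genes beside each bar; the dashed line is the 7.86% of all protein-coding genes with an annotated 3′UTR. Actin cytoskeleton and adhesion genes are highest with 30 of 36, and ribosomal protein genes lie below the line with 3 of 75.

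Markers of cell types were read in the same way to check the label. Over all 21942 protein-coding genes with an annotated 3′UTR, 4860 had a shared peak on the strand of the RNA and 1725 had one in the 3′UTR. Of 8 myoblast markers 7 had a shared peak on the strand of the RNA, and Des, Cdh15 and Ncam1 had one in the 3′UTR, whereas Myod1 had none at all. Of 6 endothelial markers Pecam1 alone had a shared peak, in an intron. None of 6 leukocyte and 5 adipocyte markers had any. Of 6 neuronal markers Tubb3 had a 3′UTR peak, with 8 and 6 reads, and Mtap2 an intron peak.

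Several genes that the study names were looked up in the 3′UTR. Phlda3 held 5 shared peaks and Fn1 10, as given above. Ythdf2, a cytoplasmic m6A reader, held 1 of 7 and 8 reads at 51 nt after the stop codon, in a sequence with 3 copies, and Rnpepl1 held 1 of 9 and 6 reads. Ythdf3, Pi4kb, Mdm4 and Ythdc1 itself had none in the 3′UTR. Ythdf3 had 3 in coding exons and 5 in introns, Pi4kb 3 and 1, and Mdm4 5 in introns alone. Ythdc1 had 3 shared peaks on the strand of the RNA, none of them in a coding exon or an intron. A gene without a listed peak may still be bound below 6 reads per bin.

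Few of the C2C12 3′UTR peaks were found in ASC-48h. Of 3754, 8 overlapped 1 of the 2443 peaks shared by all 4 ASC-48h libraries (0.213%, interval 0.0920 to 0.419), against 24 of 8092 coding exon peaks (0.297%, Fisher's exact test, adjusted p = 0.568) and 277 of 5827 intron peaks (4.75%, adjusted p = 5.04e-49). Among single-copy sequences without G runs the counts were 3 of 3273, 2 of 6604 and 42 of 3826. With peaks of any single ASC-48h library, 84 (2.24%) were found in 3′UTRs and 624 (7.71%) in coding exons (Fisher's exact test, adjusted p = 3.86e-36). Among single-copy sequences without G runs these were 55 of 3273 (1.68%) and 251 of 6604 (3.801%), a comparison with no test. In the ASC-48h libraries 0.641%, 0.902%, 1.75% and 1.80% of all peaks lay in 3′UTRs. The libraries differ in the number of peaks and in the lowest number of reads listed, and their depth is unknown, so that no difference between the cells was tested.

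The values of the 8 peaks in both cells lay between 5 and 17 reads per bin. The 2-bin peak of Lrrc58 had 10 and 17 reads in C2C12 and 7, 13, 6 and 13 in the ASC-48h libraries, where the first 2 values are those of bio1. Egr1 had 7 and 8 reads in C2C12 and 7 in each of the 4 ASC-48h libraries, and Rnft2 had 7 and 8 against 10, 11, 7 and 7. These 3 were the single-copy ones without G runs. The peaks of Cdh3 and Mob1b lay on C runs of the RNA in sequences with 6 and 133 copies, as the bin of Cdh3 shows with its pyrimidine run in capitals.
Cdh3, chr8:109080221-109080240: acagaCTCCCCCCCCCCCCC
Both libraries of C2C12 had 10 reads at Cdh3 and 6 at Mob1b. The peaks in B930036N10Rik and Lars2 had sequences with 2 and 7 copies.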

How the data were processed

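LACE-seq of YTHDC1 was analysed in 2 C2C12 and 4 ASC-48h libraries. The authors trimmed reads with Cutadapt 1.15, removed pre-rRNA reads, placed the rest on mm9 with Bowtie 1.2.3 at up to 10 positions, and called peaks per library with Piranha in 20-nt bins (p threshold 0.001, stated for ASC-48h). The deposited signal of a peak is its reads per bin, a mean over the bins of wider peaks, without normalization. Each deposited p-value comes from Piranha and holds within 1 library. Duplicate removal is not given in the sources used here. Peak lists hold no library totals, so that the depth is unknown.

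Overlaps, positions and motifs were obtained on NCBIM37, which is mm9, with GENCODE vM1 (pandas 2.3.3, numpy 2.4.6, scipy 1.17.1, pysam 0.24.0 under Python 3.11.15; plots by matplotlib 3.10.9). The code was tested on simulated data, and 6 of 6 checks gave the known answer. Coding exon peaks have their centre in coding sequence on the strand of the RNA, and intron peaks lie in a gene on that strand outside exons. Motifs were searched on the RNA strand. Intervals of shares are Clopper-Pearson, 95%, and reflect counting error alone. Fisher's tests were two-sided with Benjamini-Hochberg adjustment over 11 tests.

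Genes named are the 10 members with the highest mean, the 10 genes with the most members, the 5 densest (at least 3 members, 500 nt), the 3 highest members near a stop codon and near an end, up to 4 genes per list, and genes the study names. Members, lists and rules were chosen with earlier results of these data known. Alternatives to the overlap, the p threshold, the replicates, the transcript, copied sequence and the motif window are given in the closing section. No sequence of chromosome 18 was printed, and some genes that the rule names are not reported here.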

Additional observations from a re-analysis of the deposited data

Results flagged for a closer look

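At 2 of the 8 C2C12 3′UTR peaks that all ASC-48h libraries shared, 1 ASC-48h library lay apart from the other 3. At Cdh3 it had 11 reads per bin where the others had 10, and at Mob1b it had 7 where the others had 6. The values are whole numbers that differ by 1 read, and both peaks lie on G runs of the reads. The rule has a nominal rate of about 1 in 20 groups marked by chance. That rate was not tested for whole numbers of which 3 are equal, so that no weight is put on the 2 marks.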

How the results depend on the processing

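Of 105 values under 18 alternatives, 70 kept their direction and side of the threshold or stayed within the spread. Alternatives were planned except for counting transcripts of nonsense-mediated decay, chosen after seeing the data. Without 1 C2C12 replicate, there were 7859 to 7889 peaks in 2917 to 2963 genes, a median distance of 593 to 610 nt from the stop codon, and 37.4% to 38.3% within 400 nt of it; DRACH against 100 nt downstream went to -3.10 and -2.87 points. At p of at most 0.0001 in both libraries, 1318 peaks in 818 genes were left. At 10 reads in both, 591 in 411 genes were left, with 41.6% within 400 nt, a median of 529 nt, and DRACH 0.768 points higher than downstream. With the longest 3′UTR, 37.7% lay within 400 nt and the median was 609 nt. With single-copy sequences the median was 599 nt, 7.82% lay near the end, and the difference from coding exon peaks in ASC-48h turned to 0.0613 points (Fisher's exact test, adjusted p = 0.535). With 1 peak per gene, 1725 peaks had 47.9% within 400 nt, a median of 426 nt, 12.2% near the end, DRACH 3.47 points above coding exon peaks (Fisher's exact test, adjusted p = 0.0312) and 0.157 points more in ASC-48h (adjusted p = 0.398). DRACH against 100 nt downstream passed the threshold when each peak had to be covered to 50% or more by the other (-2.57), without G runs (-2.33), with coding features of the RNA strand only (-2.29) and without genes of other classes (-2.43). This difference was -0.0842 points at p of at most 0.0001 in both libraries, -0.156 with 50 nt on either side, -0.118 for GGAC and -3.11 with 1 peak per gene. Under these settings it did not pass. Against coding exon peaks DRACH was -0.0377 points in the peak alone (Fisher's exact test, adjusted p = 0.983), 1.75 with 50 nt on either side (adjusted p = 0.00630) and -4.72 for GGAC. With any ASC-48h library the difference was -5.47 points. The cause of these shifts was not tested. No analysis paired over samples was possible because only C2C12 peaks are described and no groups are compared over samples.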

Other observations

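Of the 3754 3′UTR peaks, 52 had their centre within 2000 nt of the middle of an annotated microRNA gene on the same strand. They were looked up after the values were seen, no share of all 3′UTR sequence was computed, and a few genes hold most of them, among them Scd2 with 13 beside AC123853.2. The 7 peaks of 2010111I01Rik began 1006 nt after the end of Mir27b, which is a microRNA of the cluster with Mir23b, and had 6 to 16 reads per bin in each library. Vmp1, whose 3′ part is known to overlap the primary transcript of Mir21, had 2 peaks before that gene, with 6 and 11 reads in replicate 1 and 6 in both cases in replicate 2. Ctdsp2, the host of Mir26a-2, had 3 peaks within that distance after it, with 7, 12 and 17 reads in replicate 1 and 6, 9 and 8 in replicate 2. Hoxc5 had 4 peaks after Mir615, with 7 to 9 reads in replicate 1 and 6 to 9.5 in replicate 2.

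The 3′UTR of Zbtb20, a zinc finger repressor, held the peak farthest from a stop codon, at 22134 nt in a 3′UTR of 23858 nt. Its 4 peaks began at 9074 nt and had 6 to 10 reads in replicate 1 and 6 to 13 in replicate 2. Among peaks outside the 10 highest, those of Psap and Clcf1 had 31 reads in one library, Psap with 31 and 14 in replicates 1 and 2 and Clcf1 with 11 and 31.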
